A study of Homo sapiens with 8 samples.

Results

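The genes examined here are 44 genes of the ATF4 amino acid response and the cytosolic tRNA synthetases, out of 38637 genes measured by RNA-seq in SW1990 cells. They were chosen by name, from what is known of ATF4 and its targets, but with earlier results of these data known, and all 44 were found in the table and had enough counts to be tested in every comparison. By role they fall into 5 transcription regulators, 6 feedback and stress effectors, 6 enzymes of serine synthesis and one-carbon metabolism, 4 other enzymes of amino acid synthesis, 6 amino acid transporters, 7 synthetases that sit in the multi-synthetase complex and 10 synthetases that are free in the cytosol.

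SW1990 is an established human pancreatic adenocarcinoma line, and the study used it to ask which transcripts change when EBF2, a transcription factor, is overexpressed or when GSK-LSD1, an inhibitor of the histone demethylase KDM1A, is added. There were 4 groups of 2 libraries each: cells carrying a vector (Vector 2 and 3), cells overexpressing EBF2 (EBF2-OE 2 and 3), cells given vehicle (Vehicle 1 and 2) and cells given GSK-LSD1 (GSK-LSD1 1 and 2), the last with a dose of 2000 µM in their titles. The labels give no treatment time, no description of the expression construct and no batch, and they do not say whether the libraries of a group came from separate cultures, so the p-values below measure only the spread between these libraries, which may be technical. Each treatment was set against its own control (Vector for EBF2-OE, Vehicle for GSK-LSD1), and the controls were set against each other, in which the expression construct, the vehicle and any difference in handling cannot be told apart.

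ATF4 is a basic leucine zipper factor whose mRNA is translated when the initiation factor eIF2 is phosphorylated, for example by GCN2 on uncharged tRNA or by PERK in the stressed endoplasmic reticulum (ER). It pairs with C/EBP proteins on composite C/EBP-ATF sites and switches on genes that make, import and charge amino acids, together with genes that feed back on the response or take it towards cell death. Because ATF4 is controlled mainly in translation, the level of its own mRNA is not a direct reading of its activity. In the pancreas, where secretory cells make large amounts of protein, this pathway is known for coupling protein synthesis to the supply of amino acids.

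The libraries held 20453362 to 27054876 counts on genes, of which the 44 members took between 0.751% and 1.01%. As a check of the labels, EBF2 had 28 counts in each Vector library, 5818 in EBF2-OE 2 and 90100 in EBF2-OE 3, so that the overexpressing libraries themselves differed widely in the level of the introduced gene. Its log2 fold change of 10.75 (SE 1.55) had an adjusted p of 1.00 by edgeR and 6.37e-09 by DESeq2. The summed level of 7 epithelial and ductal markers lay between 4622 and 7231 TPM (the count divided by gene length and rescaled to the same total in every library), while the 4 acinar markers summed to at most 1.06 TPM and the 4 endocrine markers to at most 0.433 TPM, with PRSS1, INS and GCG at 0 counts in every library. The epithelial sum was carried by KRT7, KRT8, KRT18 and MUC1, while EPCAM, KRT19 and CDH1, which define epithelial cells, were at most at 1.42, 1.57 and 1.12 TPM in any library. Epithelial markers moved with the groups: their sum was 7231 and 7119 TPM in Vehicle, 5317 and 5360 with GSK-LSD1, 4952 and 4622 in Vector, and 5472 and 6247 with EBF2-OE, and, of the 5 markers tested, KRT7 (-0.69), KRT18 (-0.45) and KRT8 (-0.30) were lower in GSK-LSD1 than in Vehicle at an adjusted p under 0.05 by edgeR, while MUC1 (0.16) and CDH1 (0.20) did not pass. Between the controls KRT18 (-0.99) and KRT8 (-0.49) were lower in Vector and KRT7 (-0.01) did not pass. The 3 endothelial markers also moved with the groups, summing to 5.02 and 4.88 TPM in Vehicle, 2.63 and 2.79 with GSK-LSD1, and 0.503 to 0.798 in the other 4 libraries, and CDH5 was lower with GSK-LSD1 (-0.97) and in Vector (-3.09) at an adjusted p under 0.05. The 3 blood markers, carried by CD68 with CD3E at 0 counts, summed to 10.98 and 13.4 TPM in Vehicle and 16.8 and 18.1 with GSK-LSD1. They summed to 25.9 and 22.0 TPM in Vector and to 30.9 and 21.1 with EBF2-OE. The 4 fibroblast markers, carried by COL1A1, summed to between 40.9 and 56.6 TPM. Of these, PDGFRB was at 16.8 and 15.6 TPM in Vehicle and 13.6 and 13.7 with GSK-LSD1. It was at 5.36 and 5.69 TPM in Vector and 7.49 and 8.35 with EBF2-OE. COL1A1 alone was higher in Vector than in Vehicle, at 39.2 and 36.2 TPM against 30.5 and 31.8. The part of these markers in the results for the members was not tested, and in bulk RNA fewer cells of a kind and less RNA per cell cannot be told apart.

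Sequences that a C/EBP-ATF site could occupy were looked for in RefSeq's promoters on GRCh38.p14, 300 bases from 250 before to 50 after each start site, which were given for 37 of the 44 members. The letters searched were TGATGNAA on both strands, or TTNCATCA when the site lies on the strand opposite to the gene. They were present in 14 of the 37 promoters (37.8%), beside 4.46% of the promoters of all 27305 genes given and 2.81% of those of the 12183 genes tested in a comparison. Among the synthetases 7 of 14 promoters held them (50%), against 1 of 14 promoters (7.14%) of the mitochondrial synthetases, which are encoded by other genes. The longer TGATGNAAT was present in 2 member promoters, those of GARS1 and TARS1, and in 1.22% of all promoters. A match in these letters is a description of the sequence and not evidence of a bound site. The members were chosen from what is known of ATF4 targets, so a share above that of all promoters is not an independent result.

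Windows around the match are shown for 1 regulator, 1 effector, 1 enzyme and 5 synthetases, to let the shared letters be read beside the values that follow. All are written 5′ to 3′ along the gene's own strand with the 8 matched letters in capitals. On GRCh38.p14 they lie at chr19:33374061-33374088 on the forward strand (CEBPG), chr15:40953252-40953279 on the forward strand (CHAC1), chr7:97872459-97872486 on the reverse strand (ASNS), chr16:70289676-70289703 on the reverse strand (AARS1), chr11:3057408-3057435 on the reverse strand (CARS1), chr9:92293693-92293720 on the reverse strand (IARS1), chr12:57488054-57488081 on the forward strand (MARS1) and chr5:33440957-33440984 on the forward strand (TARS1). The first matched base lies 42 bases before the start site in CEBPG, 209 before it in CHAC1, 68 in ASNS, 187 in AARS1, 2 in CARS1, 13 in IARS1 and 4 in MARS1, and in TARS1 it is base 3 of the transcript.
CEBPG: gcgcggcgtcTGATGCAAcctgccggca
CHAC1: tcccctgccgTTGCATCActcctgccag
ASNS: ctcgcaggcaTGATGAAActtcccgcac
AARS1: tttctcgcagTTGCATCAgccaagttag
CARS1: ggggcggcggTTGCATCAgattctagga
IARS1: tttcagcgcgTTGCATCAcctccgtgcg
MARS1: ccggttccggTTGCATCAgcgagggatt
TARS1: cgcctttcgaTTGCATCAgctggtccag

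In cells overexpressing EBF2 none of the 44 members passed the test, and neither did any other gene, EBF2 included. Genes counted as called when they changed more than 1.5-fold and their p from edgeR's quasi-likelihood test, adjusted by Benjamini-Hochberg over all genes tested, was under 0.05. At these limits 0 of the 44 members and 0% of all 15560 genes were called in either direction, and with no fold limit it was again 0 and 0%. The smallest adjusted p of any gene was 0.208, so these counts of 0 do not show that the members did not change. At an unadjusted p under 0.05, 2 members were lower, CHAC1 and DDIT3, and none was higher, beside 0.392% of all genes lower and 0.945% higher. CHAC1 alone also exceeded the fold limit, beside 0.219% of all genes lower and 0.733% higher. DESeq2 called 0 members. The log2 fold change was below 0 for 30 members and above 0 for 14, or 11 when libraries were scaled by their total counts only, beside 50.9% of all genes above 0, with a median of -0.04 beside 0.00 for all genes. In counts scaled between libraries, on which overlap is judged throughout, both EBF2-OE libraries lay below both Vector libraries for 8 members (10.8% of all genes) and above them for QARS1 alone (12.1% of all genes).

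GSK-LSD1 raised 3 members past both limits, DDIT3, STC2 and ASNS, where 2.53% of the 16059 genes tested were called up and 2.04% down, and no member was called down. With the adjusted p alone, at any size of change, 17 members rose and 1 fell, DDIT4, beside 9.86% of all genes up and 8.87% down. The call of DDIT4 was lost by DESeq2, by total-count scaling, with the replicate block and without any 1 library, that of GARS1 by DESeq2, its size factors and the block, that of CTH by DESeq2 and that of EPRS1 with the block. The 17 are DDIT3, TRIB3, STC2, PSAT1, ASNS, PYCR1, ALDH18A1, CTH, SLC3A2 and 8 synthetases. Both GSK-LSD1 libraries lay above both Vehicle libraries for 25 members (30% of all genes) and below them for 4 (30.2%). The log2 fold change was above 0 for 33 members (49.0% of all genes), with a median of 0.12 beside -0.01 for all genes. The coefficient of biological variation was 5.87% in this experiment and 19.0% in the EBF2 experiment, and in 1 fit over all 8 libraries 0 members passed either limit, with adjusted p = 0.0660 for DDIT3, 0.179 for STC2 and 0.201 for ASNS. Fewer members passed the adjusted p at any fold without GSK-LSD1 1 or without GSK-LSD1 2, and DDIT3, ASNS, STC2, TRIB3, PSAT1, PYCR1 and AARS1 were among them in both. The share of all genes passing in the fit over 8 libraries or without a library was not computed.

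The largest difference in these genes was between the controls. Vector stood above Vehicle for 20 called members and below it for 1, QARS1, where 5.79% of the 16019 genes tested were called up and 10.2% down. At any fold 30 members were higher and 1 lower, beside 13.6% and 13.2% of all genes, and the log2 fold change was above 0 for 40 (50.2% of all genes), with a median of 0.56 beside 0.00. The 2 Vector libraries lay above the 2 Vehicle libraries for 36 members (35.6% of all genes) and below them for 1 (35.3%). Most of these calls were lost without Vehicle 1 or Vehicle 2, when the spread of the controls was taken from the 2 Vector libraries alone. The share of all genes called there was not computed, so a loss particular to the members cannot be told apart from one over all genes. Vector and Vehicle libraries each enter a treatment comparison as well, so values from the 3 comparisons are given side by side and are not independent of each other.

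**Figure D1:**
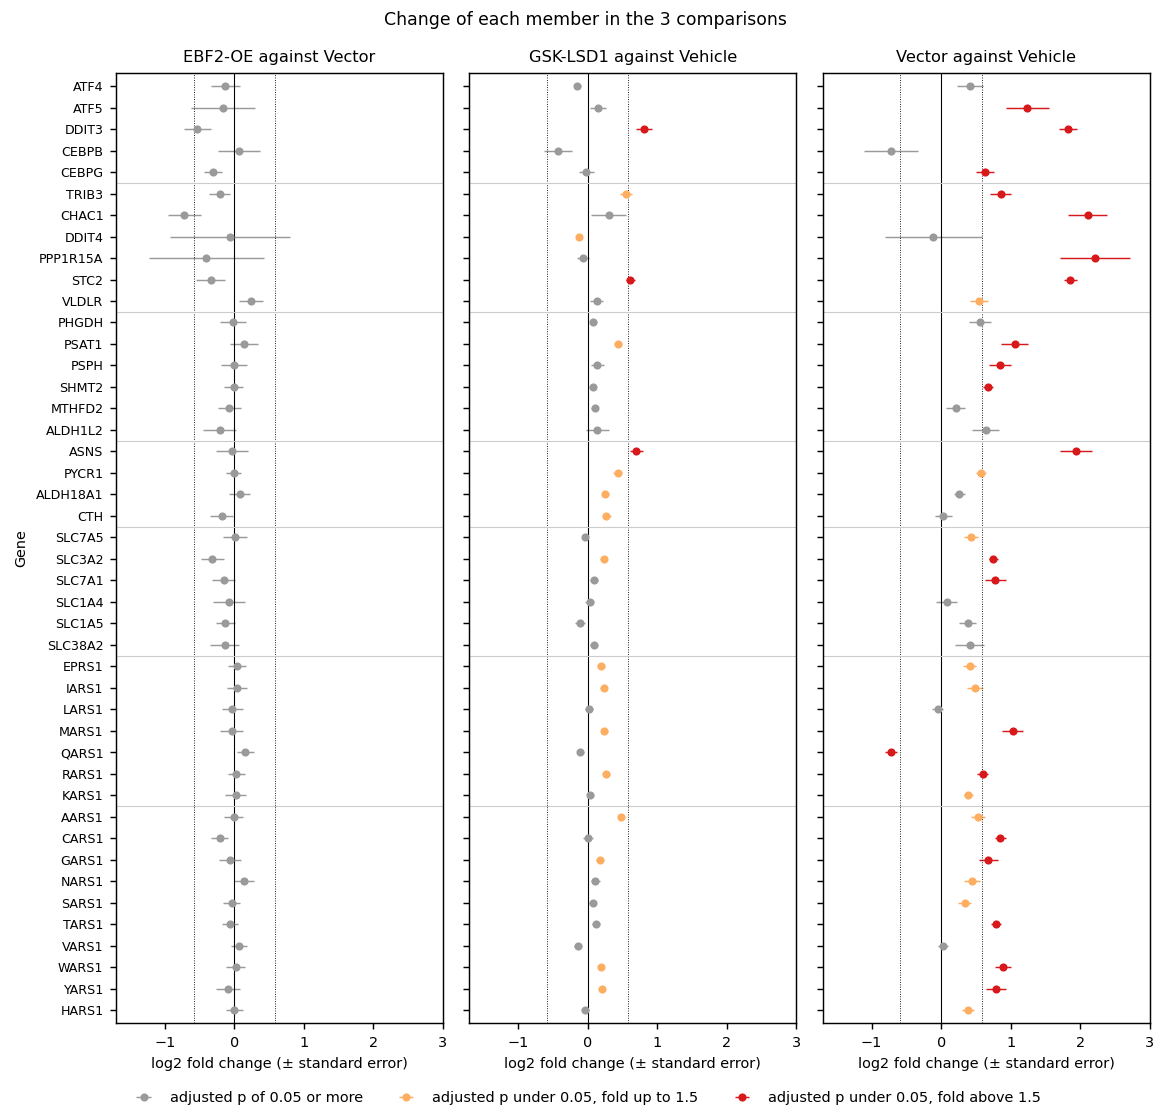
Change of each of the 44 members in the 3 comparisons: the horizontal axis gives the log2 fold change with its standard error, the rows are the genes grouped by role, and the dotted lines mark a fold change of 1.5. All 44 points are grey for EBF2-OE against Vector, 3 are red for GSK-LSD1 against Vehicle, and 21 are red for Vector against Vehicle, of which QARS1 is the 1 to the left of 0.

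Of the regulators, DDIT3 changed with GSK-LSD1 while the mRNA of ATF4 itself did not pass the test. ATF4 (chr22:39514494-39522686 on hg38, forward strand) was at 88.3 and 127 TPM in Vector, 90.0 and 103 in EBF2-OE, 79.1 and 80.3 in Vehicle, and 68.4 and 71.9 in GSK-LSD1. Both GSK-LSD1 libraries lay below both Vehicle libraries, with a log2 fold change of -0.15 (SE 0.0481, adjusted p = 0.0541 by edgeR, from 0.0433 to 0.794 over the alternatives), so this lower level did not pass the limit in the main test. Against Vector, EBF2-OE gave -0.13 (SE 0.206) with overlapping groups, and Vector against Vehicle gave 0.42 (SE 0.185, adjusted p = 0.141) without overlap. ATF4 shares 3640 bases with MIEF1 on the same strand, so its level depends on how reads there were counted. Its TPM is computed over a listed length of 7716 bases and depends on that length as well.

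DDIT3, the ATF4 target also known as CHOP that is tied to cell death under lasting stress, had the largest response to GSK-LSD1 among the members. The gene (chr12:57516588-57520517, reverse strand) was at 14.6 and 16.5 TPM in Vehicle and at 25.6 and 27.5 in GSK-LSD1, a log2 fold change of 0.81 (SE 0.118, adjusted p = 0.00117 by edgeR). In the other experiment it was at 56.9 and 55.1 TPM in Vector and 32.8 and 42.9 in EBF2-OE. There both overexpressing libraries lay below both controls, and the log2 fold change of -0.53 (SE 0.189) had an unadjusted p of 0.0298 and an adjusted p of 1.00. The 2 treatments thus lay in opposite directions from their controls, and the difference of the log2 fold changes was -1.35 (SE 0.218, adjusted p = 0.105 in 1 fit over 8 libraries), which did not pass the limit. Vector exceeded Vehicle by 1.83 (SE 0.129, adjusted p = 0.00577), so that the level in GSK-LSD1 remained below that in every Vector and EBF2-OE library. DDIT3 and MARS1 run towards each other and share 68 bases, and the strand setting of the counting is not given in the sources used here.

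The other 3 regulators are partners or relatives of ATF4. CEBPG, which dimerises with ATF4, was at 24.95 and 26.6 TPM in Vector and 17.8 and 15.1 in Vehicle, a called difference of 0.63 (SE 0.127, adjusted p = 0.0228 by edgeR). With EBF2-OE it was at 20.5 and 20.2 TPM, below both Vector libraries (log2 fold change -0.31, SE 0.132, unadjusted p = 0.0561), and with GSK-LSD1 at 16.7 and 14.9 TPM, overlapping with Vehicle. ATF5, a factor induced alongside ATF4, showed a split between the libraries of a group that exceeded any treatment difference: it was at 15.9 and 28.98 TPM in Vector and at 11.9 and 27.7 in EBF2-OE, against 9.07 and 9.77 in Vehicle and 10.8 and 9.57 in GSK-LSD1. Vector was called above Vehicle (1.24, SE 0.305, adjusted p = 0.0359), but not without Vehicle 1 or Vehicle 2. CEBPB, a C/EBP factor of inflammatory and metabolic responses, was at 110 and 61.9 TPM in Vehicle, 57.5 and 67.2 with GSK-LSD1, 70.5 and 35.8 in Vector, and 60.2 and 48.5 with EBF2-OE. Its groups overlapped in all 3 comparisons, and the log2 fold change of -0.43 (SE 0.201) with GSK-LSD1 rests on Vehicle 1, since it was 0.06 without that library and a called -0.80 without Vehicle 2.

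**Figure D2:**
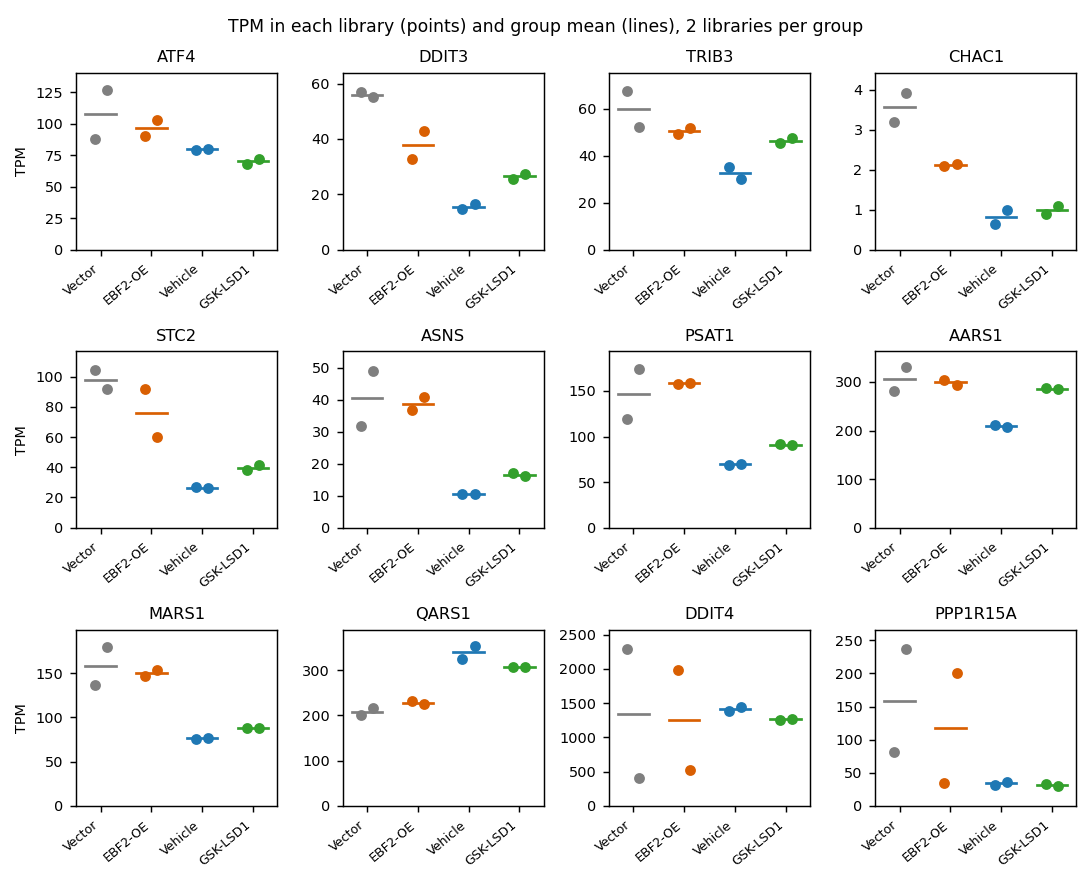
TPM of 12 members in each of the 8 libraries: points are libraries, lines are means of the 2 libraries of a group, and each vertical axis starts at 0. DDIT3, STC2 and ASNS stand higher in both GSK-LSD1 libraries than in both Vehicle libraries, ATF4 stands lower, and DDIT4 and PPP1R15A split the Vector and EBF2-OE pairs.

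Among the effectors, STC2 and TRIB3 rose with GSK-LSD1. STC2, which encodes the secreted glycoprotein stanniocalcin 2, was at 26.7 and 26.4 TPM in Vehicle and at 37.9 and 41.5 in GSK-LSD1, a log2 fold change of 0.61 (SE 0.0645, adjusted p = 1.48e-04 by edgeR). It was at 104 and 91.5 TPM in Vector and at 91.6 and 60.2 in EBF2-OE, groups that met at 91.5 and 91.6 TPM and lay apart in scaled counts (-0.34, SE 0.207, adjusted p = 1.00). Vector exceeded Vehicle by 1.86 (SE 0.0872, adjusted p = 0.00577), the only member called in that comparison whichever library was left out. The fold of STC2 with GSK-LSD1 was just above the limit, at 1.53, and the call was lost without GSK-LSD1 2.

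TRIB3, a pseudokinase that binds ATF4 and limits its activity, was at 35.1 and 29.9 TPM in Vehicle and at 45.3 and 47.5 in GSK-LSD1. The change of 0.55 on the log2 scale (SE 0.0841, adjusted p = 0.00148) is a fold of 1.46, just under the limit, and it was called without Vehicle 1. In Vector it was at 67.7 and 52.2 TPM and in EBF2-OE at 49.4 and 51.7, and Vector exceeded Vehicle by 0.86 (SE 0.151, adjusted p = 0.0165). CHAC1, which degrades glutathione, was the member furthest below its control with EBF2-OE, but it was weakly expressed: 3.20 and 3.92 TPM in Vector, 2.09 and 2.15 in EBF2-OE, 0.633 and 0.996 in Vehicle, and 0.883 and 1.09 in GSK-LSD1. Both EBF2-OE libraries lay below both Vector libraries, with a log2 fold change of -0.72 (SE 0.239, unadjusted p = 0.0233, adjusted p = 1.00), and the GSK-LSD1 and Vehicle libraries overlapped. Vector exceeded Vehicle by 2.11 (SE 0.280, adjusted p = 0.0106).

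PPP1R15A and DDIT4 differed more between the libraries of one group than between groups. PPP1R15A, also known as GADD34, directs the phosphatase that removes the phosphate from eIF2, and it was at 80.7 and 236 TPM in Vector and at 35.2 and 201 in EBF2-OE, with the library numbered 3 the high one in both. Vehicle, at 31.6 and 36.5 TPM, and GSK-LSD1, at 32.5 and 30.7, were alike within their pairs. The called difference of Vector from Vehicle, 2.21 (SE 0.503, adjusted p = 0.0300), ranged from 1.20 to 2.81 when a library was left out and was not called in 1 fit over 8 libraries (adjusted p = 0.0512). DDIT4, also known as REDD1, a stress-induced inhibitor of mTORC1 and the most highly expressed member, went the other way: it was at 2290 and 404 TPM in Vector and at 1987 and 519 in EBF2-OE, low in the library numbered 3. Vehicle held 1388 and 1448 TPM and GSK-LSD1 1258 and 1272, below both controls by a log2 fold change of -0.13 (SE 0.0401, adjusted p = 0.0458 by edgeR). The adjusted p of DDIT4 was 0.0540 with total-count scaling, 0.101 by DESeq2, 0.127 with the replicate block, 0.967 in 1 fit over 8 libraries and 0.0855 to 0.208 when a library was left out. VLDLR, a lipoprotein receptor among the ATF4 targets, was at 6.98 and 6.71 TPM in Vehicle, 7.79 and 6.81 with GSK-LSD1, 11.3 and 8.89 in Vector, and 12.8 and 10.5 with EBF2-OE. It had the highest log2 fold change of all members with EBF2-OE, 0.24 (SE 0.169, adjusted p = 1.00), with overlapping groups.

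In the pathway that makes serine from a glycolytic intermediate and hands its carbon to folate, 1 of 6 genes rose with GSK-LSD1 at any fold (9.86% of all genes). At both limits 0 of 6 were called up with GSK-LSD1 (2.53% of all genes) and 3 of 6 were called higher in Vector than in Vehicle (5.79%). PSAT1, the aminotransferase of the pathway, was at 68.6 and 70.3 TPM in Vehicle, 92.0 and 90.5 with GSK-LSD1, 119 and 174 in Vector, and 158 and 159 with EBF2-OE. Its log2 fold change was 0.43 (SE 0.0585, adjusted p = 7.47e-04 by edgeR, a fold of 1.35) with GSK-LSD1 and 1.06 (SE 0.196, adjusted p = 0.0185) between the controls. PSPH, the phosphatase of the last step, was at 15.1 and 13.8 TPM in Vehicle and 23.4 and 29.0 in Vector, a difference of 0.85 (SE 0.156, adjusted p = 0.0185), and was at 15.1 and 16.0 in GSK-LSD1 and 23.4 and 28.2 in EBF2-OE.

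SHMT2, which moves the serine carbon to folate in mitochondria, was at 284 and 293 TPM in Vehicle and 495 and 438 in Vector (0.67, SE 0.0738, adjusted p = 0.00827). EBF2-OE, at 505 and 403 TPM, and GSK-LSD1, at 284 and 308, were close to their controls. PHGDH, which starts the pathway, MTHFD2, the mitochondrial folate dehydrogenase, and ALDH1L2, a formyl-folate dehydrogenase, did not pass the limit in any comparison. Their log2 fold changes with GSK-LSD1 were 0.08, 0.10 and 0.14, and in scaled counts all 6 genes of this group had both GSK-LSD1 libraries above both Vehicle libraries (30% of all genes), although the TPM of SHMT2 overlapped. Between Vector and Vehicle, PHGDH (0.56, SE 0.161, adjusted p = 0.0532) and ALDH1L2 (0.64, SE 0.191, adjusted p = 0.0578) did not pass the limit.

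All 4 other enzymes of amino acid synthesis rose with GSK-LSD1 at any fold (9.86% of all genes), ASNS past the fold limit (2.53%) and the rest below it. ASNS, which makes asparagine and is the textbook ATF4 target, was at 10.5 and 10.4 TPM in Vehicle and at 16.95 and 16.1 in GSK-LSD1, a log2 fold change of 0.70 (SE 0.0972, adjusted p = 8.50e-04 by edgeR). In Vector it was at 31.9 and 49.0 TPM and in EBF2-OE at 36.7 and 40.7, with overlapping groups (-0.04, SE 0.230). Vector exceeded Vehicle by 1.94 (SE 0.234, adjusted p = 0.00917). ASNS (chr7:97851677-97928441, reverse strand) shares nearly all of its span with a readthrough gene, CZ1P-ASNS, which was assigned 303 to 1181 counts, or 0.804 to 1.01 times the count of ASNS, so how the counting split reads between them bears on every value of ASNS.

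PYCR1, the last enzyme of proline synthesis in mitochondria, was at 181 and 173 TPM in Vehicle and 218 and 247 in GSK-LSD1 (0.43, SE 0.0605, adjusted p = 9.18e-04). ALDH18A1, which starts proline synthesis, rose by 0.25 (SE 0.0494, adjusted p = 0.00565), and CTH, which makes cysteine from cystathionine, by 0.27 (SE 0.0702, adjusted p = 0.0228, but 0.0538 by DESeq2 and above 0.05 without Vehicle 1, GSK-LSD1 1 or GSK-LSD1 2). In CTH the control groups hardly differed, at 22.0 and 24.2 TPM in Vehicle and 22.0 and 25.6 in Vector. With EBF2-OE the 4 enzymes lay between -0.18 (CTH) and 0.08 (ALDH18A1), all with overlapping groups.

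Of the 6 transporters, SLC3A2 alone passed the adjusted p with GSK-LSD1, where 9.86% of all genes rose and 8.87% fell at any fold. SLC3A2, the heavy chain that carries SLC7A5 and other exchangers to the membrane, was at 316 and 326 TPM in Vehicle and 372 and 361 in GSK-LSD1 (0.23, SE 0.0483, adjusted p = 0.00925 by edgeR). It was at 569 and 525 TPM in Vector and at 366 and 492 in EBF2-OE, below both controls (-0.32, SE 0.165, adjusted p = 1.00), and the difference of the 2 treatments, -0.55 (SE 0.181), had an adjusted p of 0.509. SLC7A5, the leucine-importing light chain of that pair and the second most highly expressed member, was at 414 and 399 TPM in Vehicle and 389 and 382 in GSK-LSD1 (-0.04, SE 0.0460), groups that lay apart in TPM and overlapped in scaled counts.

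SLC7A1, the carrier of arginine and lysine, was at 33.9 and 33.4 TPM in Vehicle and 51.0 and 66.0 in Vector, a called difference of 0.78 (SE 0.148, adjusted p = 0.0196). GSK-LSD1, at 32.9 and 37.4 TPM, and EBF2-OE, at 51.1 and 52.4, overlapped with their controls. SLC38A2, a sodium-coupled carrier of small neutral amino acids, was at 253 and 382 TPM in Vector, a gap wider than in the other groups, where it was at 274 and 291 in EBF2-OE, 237 and 237 in Vehicle, and 228 and 264 in GSK-LSD1. SLC1A4 and SLC1A5, exchangers of alanine, serine, cysteine and, for SLC1A5, glutamine, passed the limit in no comparison.

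Of the 17 synthetases, the enzymes that attach each amino acid to its tRNA, 8 rose with GSK-LSD1 at any fold (9.86% of all genes), none past a fold of 1.5 (2.53%), and none fell (8.87%). AARS1, the alanyl enzyme, stood out from the rest: it was at 211 and 208 TPM in Vehicle and 287 and 285 in GSK-LSD1, a log2 fold change of 0.48 (SE 0.0480, adjusted p = 1.10e-04 by edgeR, a fold of 1.40). Vector held 282 and 330 TPM of it and EBF2-OE 304 and 294, so the GSK-LSD1 libraries reached the range of the other experiment. The other 7 were the bifunctional glutamyl-prolyl enzyme EPRS1, GARS1 (glycine), IARS1 (isoleucine), MARS1 (methionine), RARS1 (arginine), WARS1 (tryptophan) and YARS1 (tyrosine), with log2 fold changes from 0.18 for GARS1 to 0.26 for RARS1. GARS1 (adjusted p = 0.0466) passed narrowly, with 0.102 by DESeq2 and 0.0624 with the replicate block, and EPRS1 had 0.0563 with the block. By place in the cell, 4 of the 7 genes of the multi-synthetase complex and 4 of the 10 free enzymes rose, with medians of 0.19 and 0.11. VARS1 (valine) lay below both Vehicle libraries, at -0.14 (SE 0.0550, adjusted p = 0.110), and CARS1, HARS1, KARS1 and LARS1 were within 0.05 of 0 with overlapping groups.

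Between the controls, 5.79% of all genes were called higher in Vector. Of the 17 synthetases, 7 were: MARS1 and RARS1 of the complex and CARS1, GARS1, TARS1, WARS1 and YARS1 of the free enzymes. MARS1 (chr12:57488068-57516655, forward strand) differed most among them, at 75.7 and 77.2 TPM in Vehicle, 87.6 and 88.3 with GSK-LSD1, 137 and 179 in Vector, and 147 and 154 with EBF2-OE (Vector against Vehicle 1.03, SE 0.152, adjusted p = 0.0122). WARS1 followed with 0.89 (SE 0.114, adjusted p = 0.00985), from 130 and 132 TPM in Vehicle to 224 and 267 in Vector, with 142 and 148 in GSK-LSD1 and 253 and 235 in EBF2-OE. Every library of the EBF2 experiment was above every library of the other for both genes.

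CARS1, the cysteinyl enzyme, was at 44.5 and 48.4 TPM in Vehicle and 84.8 and 84.7 in Vector (0.85, SE 0.0818, adjusted p = 0.00742). It was at 42.5 and 48.3 in GSK-LSD1 and, below both Vector libraries, at 73.8 and 69.6 in EBF2-OE (-0.21, SE 0.118, adjusted p = 1.00). TARS1, the threonyl enzyme, was at 240 and 251 TPM in Vehicle, 265 and 254 with GSK-LSD1, 422 and 438 in Vector, and 432 and 377 with EBF2-OE, and Vector exceeded Vehicle by 0.79 (SE 0.0717, adjusted p = 0.00693). Neither of these 2 passed the limit with GSK-LSD1.

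YARS1 was at 171 and 174 TPM in Vehicle, 193 and 195 with GSK-LSD1, 261 and 341 in Vector, and 270 and 285 with EBF2-OE (Vector against Vehicle 0.79, SE 0.148). GARS1 was at 131 and 123 TPM in Vehicle, 138 and 142 with GSK-LSD1, 182 and 229 in Vector, and 194 and 195 with EBF2-OE (0.68, SE 0.141). RARS1 was at 93.8 and 98.0 TPM in Vehicle, 113 and 112 with GSK-LSD1, 147 and 149 in Vector, and 156 and 140 with EBF2-OE (0.60, SE 0.0772, a fold of 1.52 that fell below the limit with scaling by total counts). In these 3 genes the GSK-LSD1 libraries lay above Vehicle and below Vector, and EBF2-OE overlapped with Vector.

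QARS1, the glutaminyl enzyme of the complex, ran against the others. It was at 325 and 353 TPM in Vehicle, 307 and 308 with GSK-LSD1, 201 and 216 in Vector, and 232 and 224 with EBF2-OE. Vector was below Vehicle by a log2 fold change of -0.72 (SE 0.0854, adjusted p = 0.00902 by edgeR), a call that was lost without either Vehicle library. QARS1 was also the single member whose 2 EBF2-OE libraries both lay above Vector (0.16, SE 0.121, adjusted p = 1.00), and with GSK-LSD1 both libraries lay below Vehicle (-0.11, SE 0.0503, adjusted p = 0.175).

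The mitochondrial synthetases, which charge tRNAs inside the organelle, offered a comparison of like function. Of these 17 genes none was called in any comparison, where 0%, 2.53% and 5.79% of all genes were called up with EBF2-OE, with GSK-LSD1 and between the controls. At any fold SARS2 alone was lower with GSK-LSD1 (-0.24, adjusted p = 0.0364, beside 8.87% of all genes), and 4 were higher in Vector than in Vehicle (13.6%). The list medians were -0.00 with EBF2-OE, -0.02 with GSK-LSD1 and 0.16 between the controls, beside -0.00, 0.12 and 0.49 for the 17 cytosolic members. The difference between the 2 lists was not tested.

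Over all 8 libraries, 31 of the 44 members were higher in all 4 Vector and EBF2-OE libraries than in all 4 Vehicle and GSK-LSD1 libraries (70.5%, beside 19.1% of all 16558 genes tested), and QARS1 was lower in all 4. The remaining 12 overlapped between the experiments: CEBPB, DDIT4, PPP1R15A, MTHFD2, ALDH18A1, CTH, SLC3A2, SLC1A4, SLC38A2, LARS1, AARS1 and VARS1. No group links the experiments, so a difference in cells, culture or sequencing cannot be told apart from the vector and the vehicle.

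**Figure D3:**
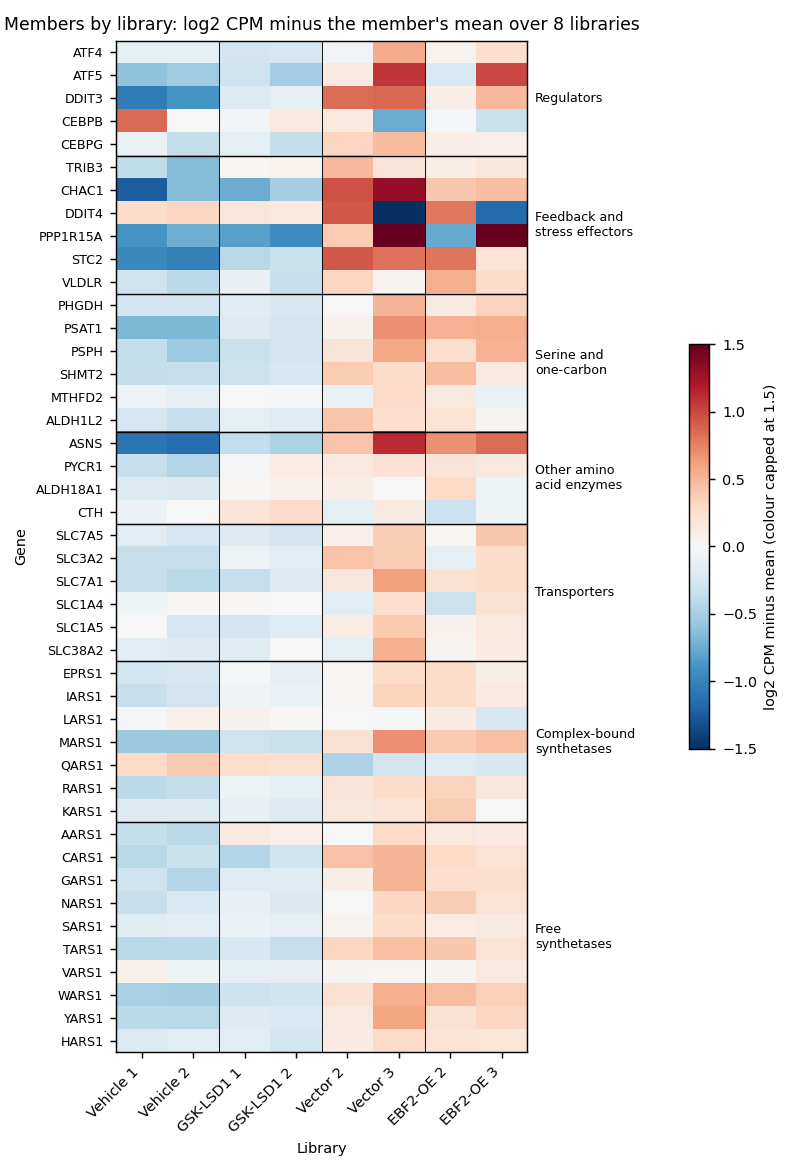
Level of the 44 members in the 8 libraries, as log2 CPM (counts scaled to the same library total) minus each gene's mean over the libraries, with red above and blue below the mean and colours capped at 1.5. Vehicle is mostly blue and Vector and EBF2-OE mostly red, QARS1 is reversed, and DDIT4 and PPP1R15A change colour within the Vector and EBF2-OE pairs.

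The libraries of a group were not equally alike. The distance between the 2 libraries exceeded 1.5-fold for 8 members in Vector and 4 in EBF2-OE, but for 2 in Vehicle and 0 in GSK-LSD1, where 17.4%, 19.9%, 6.43% and 6.56% of all genes did so. Vector 3 was above Vector 2 for 33 of the 44 members (52.2% of all genes), with a median distance of 0.26 on the log2 scale, whereas EBF2-OE 3 was above EBF2-OE 2 for 22. The widest distances, as the third library minus the second, were those of PPP1R15A, 1.62 in Vector and 2.51 in EBF2-OE, and DDIT4, -2.43 and -1.93, and ATF5 followed with 0.93 and 1.22. ASNS (0.69), SLC38A2 (0.67), PSAT1 (0.62) and ATF4 (0.60) were also more than 1.5-fold higher in Vector 3 than in Vector 2, with smaller distances of the same sign in EBF2-OE (0.15, 0.09, 0.01 and 0.20).

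A direct test of the difference between the treatments, the change with EBF2-OE minus the change with GSK-LSD1 in 1 fit over all 8 libraries, gave 0 members and 0% of 16558 genes at an adjusted p under 0.05. At an unadjusted p under 0.05 there were 9 members (7.66% of all genes): DDIT3, TRIB3, CHAC1, STC2, ASNS, PYCR1, CTH, SLC3A2 and AARS1. In all 9 the change was lower with EBF2-OE, by between 0.45 (PYCR1) and 1.35 (DDIT3) on the log2 scale. DESeq2 gave 2 members at an adjusted p under 0.05, DDIT3 and STC2, so the outcome of this test depends on the tool. The share of all genes by DESeq2 was not computed.

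Other ATF4 targets, which are not members, also moved with GSK-LSD1. Of 19 listed, 17 were tested, and with GSK-LSD1 3 were called up and 1 down (2.53% and 2.04% of all genes). SLC7A11, the cystine importer, was at 9.75 and 9.70 TPM in Vehicle and 15.7 and 16.1 in GSK-LSD1 (0.74, SE 0.0627, adjusted p = 3.81e-05 by edgeR), NUPR1, a small stress-induced chromatin protein, rose by 0.59 (SE 0.0628, adjusted p = 1.50e-04), and ADM2, a secreted peptide hormone, by 1.18 (SE 0.192, adjusted p = 0.00212). JDP2, a leucine zipper repressor, fell by 0.61 on the log2 scale (SE 0.0797, adjusted p = 5.90e-04). In 1 fit over 8 libraries the adjusted p was 0.0903 for NUPR1, 0.276 for SLC7A11 and 0.0667 for ADM2, all above 0.05, and 0.0489 for JDP2. Between the controls ATF3, SESN2, NUPR1, SLC7A11, GPT2 and ADM2 were called higher in Vector (5.79% of all genes), and JDP2 lower (10.2%). With EBF2-OE 0 were called (0% of all genes) and 12 of 17 had a log2 fold change below 0, where 50.9% of all genes were above 0.

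The ER chaperones of the ATF6 and XBP1 arms belong to the response to ER stress and are not ATF4 targets as a group. Of 14, 11 rose with GSK-LSD1 at any fold (9.86% of all genes) and 2 of these were called, HSPA5 and CALR (2.53%). All 14 had a log2 fold change above 0 (49.0% of all genes), with a list median of 0.38. HSPA5, the ER chaperone BiP, was at 391 and 392 TPM in Vehicle, 568 and 583 with GSK-LSD1, 1055 and 1016 in Vector, and 1014 and 1124 with EBF2-OE. Its log2 fold change was 0.59 with GSK-LSD1 (SE 0.0411, adjusted p = 1.12e-05) and 1.38 between the controls (SE 0.0612, adjusted p = 0.00577), and both stayed under an adjusted p of 0.05 in 1 fit over 8 libraries. Between the controls 8 of the 14 were called higher in Vector (5.79% of all genes), with a median of 0.62, and with EBF2-OE 0 were called, with a median of 0.07.

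Upstream of ATF4, the 17 genes of the eIF2 kinases, eIF2, its exchange factor eIF2B and their regulators included 0 called genes with EBF2-OE and with GSK-LSD1. Of all genes tested, 0% were called with EBF2-OE, and 2.53% were called up and 2.04% down with GSK-LSD1. With GSK-LSD1 DNAJC3, an ER co-chaperone that inhibits eIF2 kinases, alone passed the adjusted p (0.28, adjusted p = 0.0125), where 9.86% of all genes rose at any fold. Between the controls DNAJC3 (0.87), EIF2S1, the alpha subunit of eIF2 (0.63), and EIF2B3, a subunit of the exchange factor (0.60), were called higher in Vector, beside 5.79% of all genes. Of the genes that sense amino acids upstream of mTORC1, SESN3 (-0.82) and CASTOR2 (-0.85) were called lower in Vector than in Vehicle (10.2% of all genes), and 0 of 13 tested were called with GSK-LSD1. At any fold 1 of these 13 rose with GSK-LSD1 and 1 fell, beside 9.86% and 8.87% of all genes. The lowest log2 fold change of the list there was that of CASTOR2 (-0.53).

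Among 11 further one-carbon genes, GLDC, the decarboxylase of the glycine cleavage system, was the 1 called up with GSK-LSD1 (2.51, SE 0.698, adjusted p = 0.0301), from a level of 0.108 and 0.0250 TPM in Vehicle to 0.428 and 0.326 in GSK-LSD1. Of all genes tested, 2.53% were called up there. Vehicle had 4 and 1 counts of GLDC, GSK-LSD1 had 15 and 11, and the adjusted p was 0.150 in 1 fit over 8 libraries. GLDC passed the count filter only through the GSK-LSD1 libraries, where it was high, so no result is drawn from its call. SLC25A32, the mitochondrial folate carrier, was the 1 called higher in Vector than in Vehicle (0.68, SE 0.143, adjusted p = 0.0247), beside 5.79% of all genes.

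Members with and without the C/EBP-ATF letters in the promoter window can be set side by side. Between the controls 12 of the 14 with the letters and 14 of the 23 without were higher in Vector at an adjusted p under 0.05, beside 13.6% of all genes, with medians of 0.72 and 0.42. With GSK-LSD1 it was 6 of 14 and 9 of 23, beside 9.86% of all genes, with medians of 0.15 and 0.10, and with EBF2-OE 0 in both. The difference was not tested. Of the 3 members called up with GSK-LSD1, ASNS carries the letters in its window, and no match was found for DDIT3 or STC2. Sequence more than 250 bases before the start site, and members without a given promoter, were not searched. AARS1, which rose at any fold, carries the letters as do CARS1 and TARS1, which did not pass the limit.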

How the data were processed

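RNA-seq of 8 SW1990 libraries (poly(A)-selected, paired-end) was analysed. Per the labels, the authors mapped reads with HISAT2 (default settings, hg38) and counted them per gene with HTSeq; the strand setting is not given in the sources used here. The authors deposited raw counts per gene, gene length in bases and TPM, which was checked to equal the count over the length, rescaled. Tests used the deposited counts, with groups taken from the sample labels; TPM served for levels only.

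Each comparison was fitted on its own 4 libraries with edgeR 4.0.16 (quasi-likelihood test, TMM, filterByExpr with a minimum count of 10) in R 4.3.3. P-values are two-sided and Benjamini-Hochberg adjusted over all genes tested. Fold changes are from the fit, SE from the test statistic, and called means fold above 1.5 with adjusted p under 0.05. Total counts were 20453362 to 27054876; intervals cover spread among 2 libraries per group.

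Alternatives were DESeq2 1.42.0 and its size factors, total-count scaling, other count filters, limma 3.58.1 on log2 CPM (pseudocount 1), a fit over 8 libraries, a replicate block, unadjusted p, no fold limit and leaving out each library; counts at any fold under these settings were added after seeing the data. The tests were checked on simulated data with 200 genes changed by 1 on the log2 scale. EdgeR called 47.5% of these with EBF2-OE, 81% with GSK-LSD1 and 65% between the controls, and it called 4, 1 and 2 unchanged genes. The simulated spread followed the fitted trend with expression and left out the spread particular to each gene, so real recovery can differ.

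The members and lists were chosen with earlier results of these data known. Values in every library are given for ATF4, members called in a comparison, the 6 members that changed most in each comparison and the 6 with the widest gap within a group, and for some further members chosen after their values were seen; from other lists, called genes and some list extremes are named. Figures were drawn with matplotlib 3.10.9 in Python 3.11.15. Protein data, ChIP-seq and xenografts were not analysed here.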

Additional observations from a re-analysis of the deposited data

How the results depend on the processing

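With GSK-LSD1 against Vehicle, 3 members were called up; this was 0 in 1 fit over all 8 libraries, 17 with no fold limit and 2 to 4 when a library was left out, and 1 was called down with no fold limit and 0 to 1 when a library was left out. At any fold the 17 became 0 in the fit over 8 libraries and 8 to 16 when a library was left out, and the median ranged from 0.09 to 0.17. Between Vector and Vehicle, leaving out a library gave 1 to 26 called up, 0 to 3 called down, 1 to 38 higher at any fold and a median of 0.52 to 0.66, and 2 were called down with no low-count filter. With EBF2-OE, CHAC1 made 1 call down by unadjusted p. The difference of the treatments gave 0 members, but 2 by DESeq2, 5 with no low-count filter, 9 by unadjusted p and 0 to 1 when a library was left out. The longer promoter letters were found in 2 members. In each case the cause was not tested. Where a setting refitted the data, the share of all genes called was not computed. A change particular to the members cannot be told apart there from one over all genes.

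Signs turned when a library was left out in EBF2-OE against Vector for ATF4 (-0.39 to 0.18), ATF5 (-0.91 to 0.37), CEBPB (-0.32 to 0.61), DDIT4 (-1.33 to 1.65), PPP1R15A (-2.16 to 0.60), ASNS (-0.33 to 0.34) and SLC38A2 (-0.43 to 0.22), in GSK-LSD1 against Vehicle for CEBPB (-0.80 to 0.06), and in Vector against Vehicle for DDIT4 (-1.80 to 0.65). DDIT4 with EBF2-OE was also 0.11 by limma. For the calls of named genes at both limits, 485 of 493 other settings left the call and direction in place. When a library was left out this held for 198 of 264, 44 lost the call, 9 gained one and 13 changed sign; the 44 were all between the controls but for STC2 with GSK-LSD1 (0.57 without GSK-LSD1 2).

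The replicate numbers 2 and 3 recur in Vector and EBF2-OE, and 1 and 2 in Vehicle and GSK-LSD1, without a stated meaning. Deviations from the group means correlated at 0.35 over all genes (0.81 over members) in the first experiment and at -0.05 (-0.16) in the other. The 0.81 includes the wide gaps of PPP1R15A, DDIT4 and ATF5, and its dependence on them was not tested. The library numbered 3 was the higher for 33 of the 44 members in Vector and for 22 in EBF2-OE. With the replicate block, 0 and 3 members were called, 15 rose with GSK-LSD1 at any fold, and DDIT4 with EBF2-OE became 0.11. Vector and Vehicle share the number 2 only, so no block was fitted there. With 2 libraries per group no common limit of detection can be given: with EBF2-OE no gene had an adjusted p below 0.208.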
